A study of Homo sapiens with 6 samples.

Results

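The WNT pathway genes followed here were 50 genes given by name: 16 ligands, 10 Frizzled receptors, 2 LRP coreceptors, 3 LGR receptors for R-spondin, 5 secreted antagonists, 2 Kremen coreceptors, 2 ubiquitin ligases that clear receptors, 4 genes of β-catenin and its destruction complex, 4 TCF/LEF factors and 2 intracellular antagonists. They are 50 of the 61279 genes with a quantified transcript in RNA-seq of libraries labelled T47D. T47D is an established line from a breast cancer with hormone receptors, here labelled as wild type and grown in RPMI with fetal bovine serum. The study describes T47D as a PIK3CA-mutant line, which the wild-type label does not state. Libraries labelled MI-503 came from cells kept for 24 hours with MI-503 at 4 μmol/L (n = 3), and libraries labelled DMSO from cells given the vehicle DMSO over the same 24 hours (n = 3). MI-503 keeps menin from binding MLL1, a methyltransferase for lysine 4 of histone H3, and the comparison asks which transcripts differ when that binding is blocked. The libraries of each label are marked as biological replicates of this single line.

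WNT ligands are lipid-modified secreted proteins that bind a Frizzled receptor together with LRP5 or LRP6. Binding halts a cytoplasmic destruction complex built on AXIN and APC, so that β-catenin escapes degradation, enters the nucleus and acts with TCF/LEF factors on target genes. Some targets, among them AXIN2, NKD1, RNF43 and ZNRF3, encode inhibitors and so form negative feedback loops. Other WNT and Frizzled pairs act without β-catenin on cell polarity and movement. In the breast, WNT4 is known as a paracrine signal made by progesterone-responsive luminal cells.

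The libraries labelled DMSO lacked many markers of the cell line named on their labels. ESR1, the estrogen receptor gene that defines hormone receptor–positive breast cells, had 47.5, 53.8 and 67.3 TPM (salmon's abundance unit, in which reads are scaled by transcript length and by library) in the libraries labelled MI-503, against 0, 0.042 and 0 TPM in those labelled DMSO. KLK3, a prostate marker, was without reads in the libraries labelled MI-503, against 4492, 3982 and 3848 TPM in those labelled DMSO. Of 20 luminal breast markers, 18 were tested, 17 were higher with the MI-503 label and 0 lower. The exception, FOXA1, had 153.8, 270.1 and 220.7 TPM with the MI-503 label, against 381.9, 267.2 and 219.5 TPM with the DMSO label, and did not pass. The next sum is over all 20 luminal markers, FOXA1 included. Their summed level was 13770 to 16800 TPM with the MI-503 label and 454 to 748 TPM with the DMSO label. Of 16 prostate markers, 15 were tested, 14 were lower and 1 higher, and their sum was 52.6 to 62.6 TPM with the MI-503 label against 5713 to 7333 TPM with the DMSO label. Groups are therefore named by their labels throughout. A response to MI-503 and any other difference between the 2 groups of libraries cannot be told apart in these data, and no comparison remains once the libraries labelled DMSO are left out. MEN1, which encodes menin, had 67.8, 62.0 and 61.5 TPM with the MI-503 label, against 25.3, 24.99 and 34.9 TPM with the DMSO label (log2 fold change 1.27, standard error 0.19). KMT2A, which encodes MLL1, had 19.6, 10.6 and 10.6 TPM with the MI-503 label, against 19.0, 10.7 and 7.23 TPM with the DMSO label, and did not pass the test. Library totals ran from 17404736 to 22168525 estimated reads.

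Of the 50 genes, 46 had at least 1 read and 34 had enough reads to be tested. The test was edgeR's quasi-likelihood test over 16442 genes, with Benjamini-Hochberg adjusted p-values, and a gene is called higher or lower here at an adjusted p under 0.05. At that threshold 10 genes (29.4% of the 34) were higher and 15 (44.1%) were lower with the MI-503 label, while 9 did not pass. Over all tested genes, 31.7% were higher and 31.1% were lower. Adding the fold threshold of the study, a log2 fold change beyond 2 in size, left 5 genes higher (14.7%) and 8 lower (23.5%), beside 12.6% and 11.7% over all genes. The share higher was thus close to the background in both counts, and the share lower was above it in both. These shares rest on few genes, chosen with earlier results of these data known, and their difference from the background was not tested. The 15 lower genes include WNT2B, whose mean TPM ran the other way. The median log2 fold change was −0.15 among the 34 genes and −0.00 among all tested genes, and the median size of the change was 1.54 and 0.90. Placing FZD6, which had no reads with the MI-503 label, at its bound left the median of the 34 genes at −0.15. That could not have been otherwise, because FZD6 is the lowest of these genes at either value. For 26 of the 34 genes the TPM ranges of the labels did not overlap, as for 66.3% of all tested genes. In bulk RNA a lower level can reflect fewer cells that express a gene or less RNA per cell, and these cannot be told apart.

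**Figure D1:**
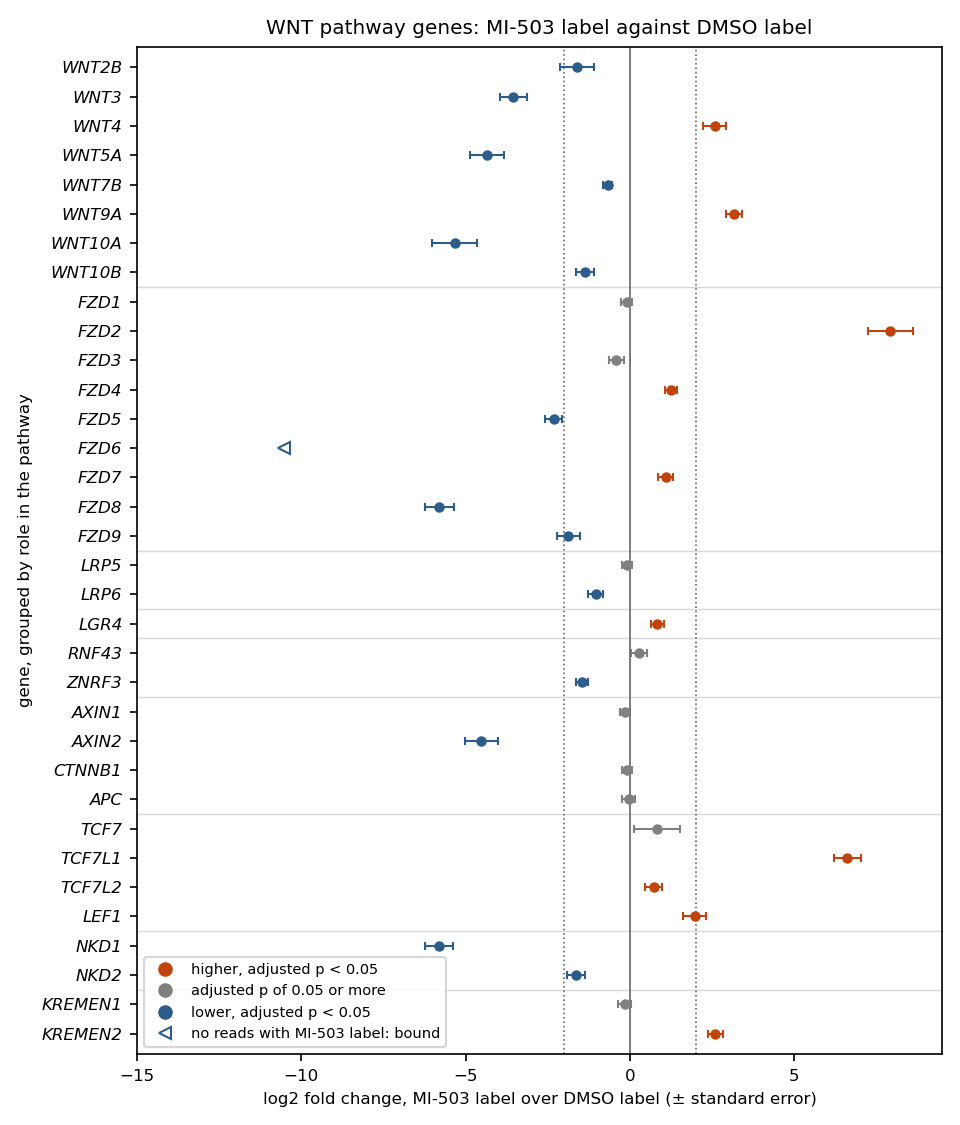
Log2 fold change of the 34 tested WNT pathway genes, MI-503 label over DMSO label, with its standard error (horizontal axis, 3 libraries per label), grouped by role from ligands at the top to Kremen coreceptors at the bottom. Dotted lines mark a log2 fold change of 2 in each direction; FZD2 and TCF7L1 lie farthest to the right at 7.93 and 6.62, and FZD6 is drawn at its bound of −10.53 because it had no reads with the MI-503 label.

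Among the 16 ligands, WNT9A and WNT4 were higher with the MI-503 label, and WNT2B, WNT3, WNT5A, WNT7B, WNT10A and WNT10B were lower. WNT7B, a ligand of the β-catenin branch, was the most abundant ligand with both labels. It took 45.4% to 53.9% of summed ligand TPM with the MI-503 label and 54.3% to 59.4% with the DMSO label. The second place differed: WNT9A held 21.8% to 25.3% with the MI-503 label and 1.44% to 2.13% with the DMSO label, whereas WNT10B held 11.6% to 17.6% with the MI-503 label and 26.0% to 26.9% with the DMSO label. Summed ligand level was 27.7 ± 2.92 TPM with the MI-503 label and 42.2 ± 3.98 TPM with the DMSO label (SD, n = 3 each).

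WNT9A, a ligand with known roles in joint and limb development, lies at chr1:227918656-227947932 (GRCh38, as are all coordinates here). It had 6.42, 5.85 and 6.82 TPM in the libraries labelled MI-503, against 0.667, 0.817 and 0.789 TPM in those labelled DMSO. All 3 libraries labelled MI-503 were above all those labelled DMSO, and the replicates of each label lay close together. The log2 fold change was 3.17 (standard error 0.24, edgeR adjusted p = 2.08e-06). WNT4 (chr1:22117313-22143969) had 1.56, 2.75 and 3.36 TPM with the MI-503 label, against 0.516, 0.355 and 0.557 TPM with the DMSO label. Its lowest library labelled MI-503 was still above the highest labelled DMSO, and the log2 fold change was 2.58 (standard error 0.36, edgeR adjusted p = 0.000128).

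WNT10A (chr2:218880852-218899581), a ligand needed for teeth, hair and skin, had 0.0303, 0 and 0.110 TPM with the MI-503 label, against 2.73, 1.97 and 1.72 TPM with the DMSO label. Only 4 reads fell on it in the MI-503 group, against 203 in the DMSO group, so its log2 fold change of −5.33 (standard error 0.69, edgeR adjusted p = 8.45e-05) rests on few reads, and was −4.74 without MI-503 replicate 2 and −6.63 without MI-503 replicate 3. WNT5A (chr3:55465715-55490539), the best known ligand of the β-catenin–independent branch, had 0.118, 0.0495 and 0.0430 TPM with the MI-503 label, against 2.18, 1.88 and 1.18 TPM with the DMSO label. The labels did not overlap, and its log2 fold change was −4.34 (standard error 0.51, edgeR adjusted p = 4.27e-05), or −4.96 without MI-503 replicate 1. WNT5A had 18 reads in the MI-503 group and 419 in the DMSO group. WNT3 (chr17:46762506-46833154), a β-catenin branch ligand, had 0.135, 0.128 and 0.192 TPM with the MI-503 label, against 2.29, 1.93 and 1.55 TPM with the DMSO label. It too separated the labels completely (log2 fold change −3.55, standard error 0.41, edgeR adjusted p = 3.7e-05), with 21 reads in the MI-503 group and 287 in the DMSO group.

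WNT10B, known as an inhibitor of fat cell formation, and WNT7B were lower by less. WNT10B had 3.15, 3.11 and 5.45 TPM with the MI-503 label, against 12.1, 10.3 and 11.1 TPM with the DMSO label (log2 fold change −1.37, standard error 0.28). WNT7B had 13.4, 14.4 and 14.1 TPM with the MI-503 label, against 25.5, 20.9 and 24.8 TPM with the DMSO label (log2 fold change −0.68, standard error 0.15). For both genes every library labelled MI-503 was below every library labelled DMSO. WNT2B passed narrowly on reads (log2 fold change −1.62, edgeR adjusted p = 0.0193), but its TPM overlapped between labels and its mean TPM ran the other way, 0.229 with the MI-503 label and 0.154 with the DMSO label. The call was lost without a filter on low counts and in DESeq2, and WNT2B shares 2665 exonic bases with ST7L on the opposite strand. The remaining 8 ligands were not tested. WNT7A and WNT16 had no reads in any library. WNT11 had 7, 6 and 6 reads and WNT1 had 3, 5 and 5 reads in the libraries labelled MI-503, and neither had any in those labelled DMSO, which puts WNT11 at least 6.67-fold higher and WNT1 at least 4.56-fold higher against a floor of 3 reads over the DMSO group. WNT2, WNT3A, WNT5B and WNT6 had at most 5 reads in either group.

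**Figure D2:**
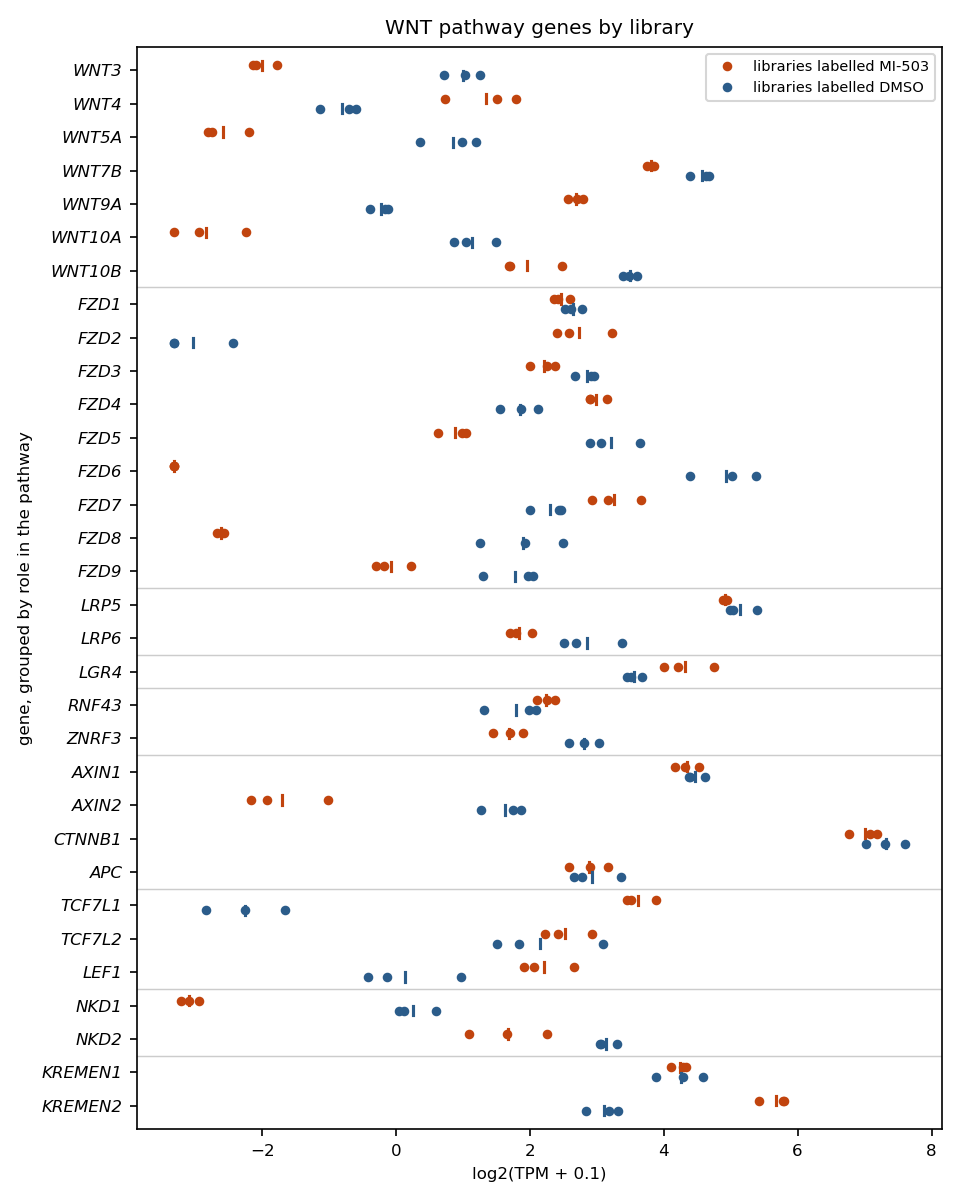
Levels of the 32 WNT pathway genes with a mean of at least 1 TPM under either label, as log2(TPM + 0.1); each dot is 1 library, each short bar the mean of the 3 libraries, with the libraries labelled MI-503 drawn above those labelled DMSO for each gene. FZD6 lies at the left edge in all libraries labelled MI-503, and CTNNB1 is the highest gene under both labels, with means of 129.8 and 161 TPM.

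The Frizzled receptors, which bind the ligands, differed in which members supplied the transcripts. Of 10 genes, FZD2, FZD4 and FZD7 were higher with the MI-503 label, FZD5, FZD6, FZD8 and FZD9 were lower, FZD1 and FZD3 did not pass, and FZD10 had no reads. Summed Frizzled level was 36.9 ± 2.44 TPM with the MI-503 label and 69.9 ± 12.6 TPM with the DMSO label (SD, n = 3 each). FZD6, known for planar polarity signaling, supplied none of that sum with the MI-503 label and 36.0% to 49.9% with the DMSO label. FZD7, a receptor of the β-catenin branch, supplied 19.6% to 32.7% with the MI-503 label, against 6.53% to 7.74% with the DMSO label. FZD4, known as a receptor for norrin in retinal vessels, supplied 19.2% to 22.8% against 4.87% to 5.18%, and FZD2 13.6% to 24.1% against 0% to 0.123%.

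**Figure D3:**
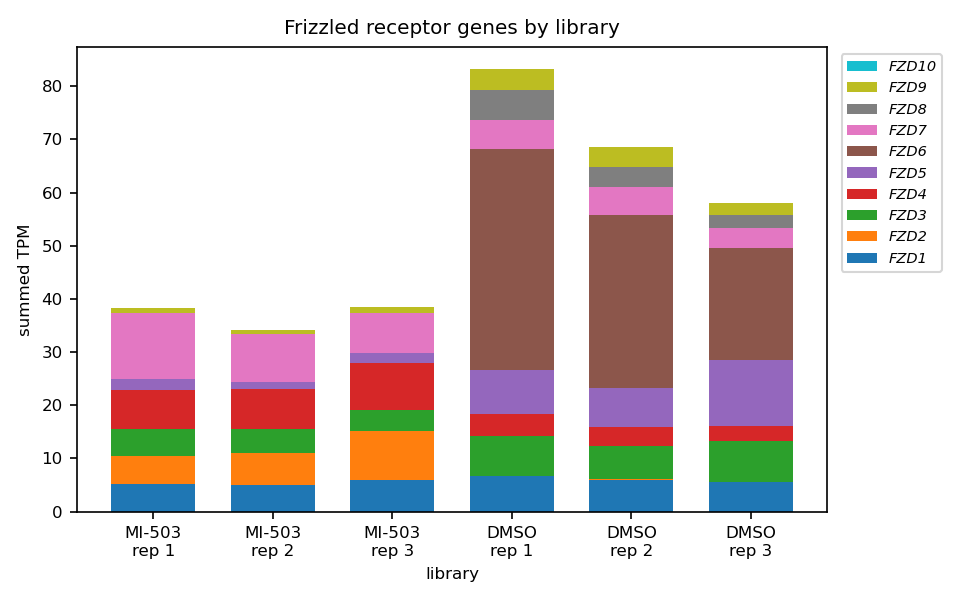
Summed TPM of the Frizzled receptor genes in each library (stacked bars, 3 libraries labelled MI-503 at the left and 3 labelled DMSO at the right). FZD6 makes up none of the bars labelled MI-503, where FZD7, FZD4 and FZD2 are the thickest segments in replicates 2 and 3, and 36.0% to 49.9% of those labelled DMSO.

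FZD6 (chr8:103298433-103332866) had 0 reads in each library labelled MI-503, against 2026, 1564 and 1071 reads in those labelled DMSO, which is 41.5, 32.4 and 20.9 TPM. With 3 reads over the MI-503 group as the floor, it was at least 1475-fold lower (edgeR adjusted p = 6.04e-07). FZD2 (chr17:44557484-44561262), a receptor known to act with WNT5A, ran the other way, with 5.20, 5.89 and 9.27 TPM with the MI-503 label against 0, 0.0842 and 0 TPM with the DMSO label. All 5 FZD2 reads of the DMSO group came from replicate 2, and the log2 fold change was 7.93 (standard error 0.68, edgeR adjusted p = 6.39e-06). Without that library the DMSO group had no FZD2 reads, and the fitted value of 11.68 then depends on the prior count and is no bound. FZD8 (chr10:35638247-35642296), a receptor of the β-catenin branch, had 0.0567, 0.0646 and 0.0683 TPM with the MI-503 label, against 5.55, 3.70 and 2.29 TPM with the DMSO label. Its labels were far apart although the libraries labelled DMSO differed among themselves (log2 fold change −5.80, standard error 0.44, edgeR adjusted p = 1.94e-06). FZD8 had 12 reads in the MI-503 group and 789 in the DMSO group.

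FZD5 (chr2:207762598-207769906), a receptor known from gut and eye development, had 1.97, 1.45 and 1.88 TPM with the MI-503 label, against 8.26, 7.38 and 12.4 TPM with the DMSO label. Its log2 fold change of −2.31 (standard error 0.26, edgeR adjusted p = 2.82e-05) was the smallest among the genes past the fold threshold. FZD9, at −1.88, lay just short of it. FZD7 had 12.5, 8.90 and 7.54 TPM with the MI-503 label, against 5.43, 5.31 and 3.90 TPM with the DMSO label (log2 fold change 1.09, standard error 0.24). FZD4 had 7.34, 7.38 and 8.78 TPM with the MI-503 label, against 4.24, 3.55 and 2.83 TPM with the DMSO label (log2 fold change 1.26, standard error 0.18). FZD7 and FZD4 each separated the labels, but FZD4 shares 1399 exonic bases with PRSS23 on the opposite strand. PRSS23 was at 1.75, 2.82 and 2.08 TPM with the MI-503 label and at 1.88, 0.723 and 0.772 TPM with the DMSO label, and its part in the FZD4 value was not tested.

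The LRP coreceptors, which carry the signal of the β-catenin branch across the membrane, split. LRP6 had 3.99, 3.37 and 3.14 TPM with the MI-503 label, against 10.3, 6.38 and 5.57 TPM with the DMSO label, and was lower (log2 fold change −1.04, standard error 0.24, edgeR adjusted p = 0.00326). LRP5 had 30.4, 29.5 and 30.5 TPM with the MI-503 label, against 41.7, 32.8 and 31.6 TPM with the DMSO label. LRP5 was thus the more abundant coreceptor in every library, and it did not pass the test on TMM-scaled reads (log2 fold change −0.09, standard error 0.15, edgeR adjusted p = 0.622), although its TPM ranges did not overlap.

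LGR4, a receptor for R-spondins, which strengthen WNT signals, had 26.9, 18.4 and 15.9 TPM with the MI-503 label, against 12.7, 11.4 and 10.9 TPM with the DMSO label. It was higher (log2 fold change 0.84, standard error 0.19, edgeR adjusted p = 0.00304), while LGR5, the gut stem cell marker of the same family, had no reads and LGR6 had 2, 1 and 1 reads with the MI-503 label against 19, 13 and 0 with the DMSO label. R-spondins act by removing RNF43 and ZNRF3, ubiquitin ligases that take Frizzleds off the cell surface. ZNRF3 had 2.64, 3.17 and 3.61 TPM with the MI-503 label, against 8.04, 5.91 and 6.90 TPM with the DMSO label, and was lower (log2 fold change −1.45, standard error 0.19, edgeR adjusted p = 8.7e-05). RNF43 had 5.10, 4.66 and 4.20 TPM with the MI-503 label, against 4.16, 3.85 and 2.38 TPM with the DMSO label, and did not pass (log2 fold change 0.28, edgeR adjusted p = 0.321).

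The secreted antagonists bind either the ligands (SFRP1, SFRP2 and SFRP4) or LRP5 and LRP6 (DKK1), and none of the 5 had enough reads to be tested. DKK1 had 2, 3 and 3 reads in the libraries labelled MI-503 and none in those labelled DMSO, at least 2.81-fold higher against the floor. SFRP1, SFRP2, SFRP4 and DKK3 had at most 5 reads in either group, and DKK3 shares 5681 exonic bases with USP47 on the opposite strand. By contrast, KREMEN2 was the second most abundant of the 50 genes with the MI-503 label. Kremen proteins bind DKK1 and draw LRP6 off the surface. KREMEN2 (chr16:2964216-2968380) had 55.7, 43.0 and 54.7 TPM with the MI-503 label, against 7.02, 9.83 and 8.98 TPM with the DMSO label. The labels were well apart (log2 fold change 2.59, standard error 0.23, edgeR adjusted p = 5.51e-06). The gene shares 357 exonic bases with PKMYT1 on the opposite strand, which was at 86.2, 83.0 and 74.1 TPM with the MI-503 label and at 42.1, 45.8 and 89.4 TPM with the DMSO label, and the part of that overlap was not tested. KREMEN1 had 19.4, 20.1 and 17.1 TPM with the MI-503 label, against 23.9, 19.4 and 14.7 TPM with the DMSO label, with overlapping ranges and an adjusted p of 0.471.

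In the cytoplasm, β-catenin and the core of its destruction complex differed little between labels, while the feedback gene of the complex was nearly absent with the MI-503 label. CTNNB1 (chr3:41194741-41260096), which encodes β-catenin, was the most abundant of the 50 genes, with 108.4, 146 and 135 TPM with the MI-503 label against 195, 129.5 and 159 TPM with the DMSO label. Its ranges overlapped (log2 fold change −0.08, standard error 0.15, edgeR adjusted p = 0.672). The scaffold APC had 5.89, 8.85 and 7.32 TPM with the MI-503 label, against 10.1, 6.19 and 6.75 TPM with the DMSO label (log2 fold change −0.04, standard error 0.19, edgeR adjusted p = 0.872). The scaffold AXIN1 had 19.9, 23.0 and 17.9 TPM with the MI-503 label, against 24.3, 20.9 and 20.7 TPM with the DMSO label (log2 fold change −0.14, standard error 0.15, edgeR adjusted p = 0.448). For these 3 genes the difference between labels was no larger than the spread between replicates. AXIN2 (chr17:65528563-65561648), the inducible scaffold widely read as a marker of β-catenin activity, had 0.163, 0.395 and 0.122 TPM with the MI-503 label, against 2.32, 3.54 and 3.27 TPM with the DMSO label. Every library labelled MI-503 lay far below every library labelled DMSO (log2 fold change −4.52, standard error 0.50, edgeR adjusted p = 2.62e-05). AXIN2 had 11, 3 and 3 reads with the MI-503 label, against 116, 153 and 181 with the DMSO label, so its fold rests on few reads. The AXIN2 value was −5.29 without MI-503 replicate 1 and −3.67 with length-scaled counts, and passed in both.

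CTNNB1 differed between labels in which annotated transcript the reads were assigned to. CTNNB1-201, CTNNB1-202 and CTNNB1-203 share the same 14 coding exons. One difference is in the 3′ untranslated region, which is unspliced in CTNNB1-201 and has an intron of 464 bases removed in CTNNB1-202 and of 305 bases in CTNNB1-203. The transcript lengths, 3661, 3268 and 3472 bases, are not accounted for by these introns alone. Other untranslated sequence therefore differs too, and the assignments cannot be read as splicing of this region only. CTNNB1-203 had 49.3, 44.8 and 55.7 TPM with the MI-503 label, against 4.50, 15.7 and 17.3 TPM with the DMSO label. CTNNB1-202 ran the other way, with 4.01, 12.99 and 7.51 TPM with the MI-503 label against 32.6, 26.6 and 22.2 TPM with the DMSO label. CTNNB1-201 had 37.7, 40.0 and 51.1 TPM with the MI-503 label, against 89.5, 67.7 and 62.1 TPM with the DMSO label. Each of the 3 transcripts thus separated the labels while the gene total did not. The introns removed in CTNNB1-202 and CTNNB1-203 start at the same base (chr3:41239355) and end at different bases (41239818 and 41239659). These are salmon's assignments among 56 annotated transcripts, and the size of their error is not known here. Assignment swung between replicates of a label for another transcript. CTNNB1-237 had 0, 26.6 and 0 TPM with the MI-503 label, against 28.95, 0 and 26.2 TPM with the DMSO label. Those swings are as large as the values of CTNNB1-202 with the DMSO label. The transcript values are therefore given as a description without a test.

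**Figure D4:**
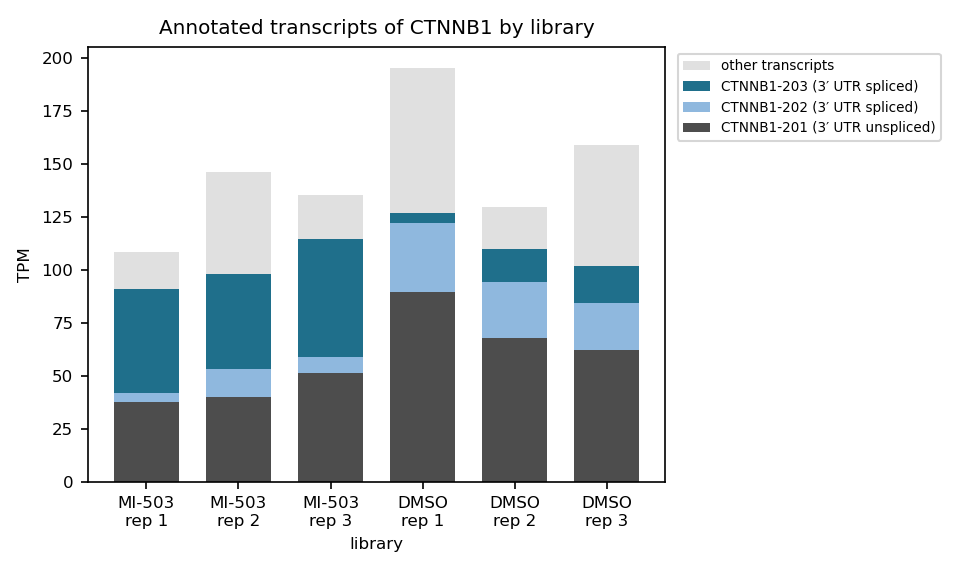
TPM of CTNNB1 in each library (stacked bars, 3 libraries labelled MI-503 at the left and 3 labelled DMSO at the right), divided into the transcripts CTNNB1-201, CTNNB1-202, CTNNB1-203 and all others. CTNNB1-203 takes 44.8 to 55.7 TPM with the MI-503 label and 4.50 to 17.3 TPM with the DMSO label, and CTNNB1-201 takes 37.7 to 51.1 TPM and 62.1 to 89.5 TPM.

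The TCF/LEF factors bind DNA and receive β-catenin. Of the 4, TCF7L1, LEF1 and TCF7L2 were higher with the MI-503 label and TCF7 did not pass. Their summed level was 23.3 ± 3.15 TPM with the MI-503 label and 6.52 ± 2.57 TPM with the DMSO label (SD, n = 3 each). TCF7L1 (chr2:85133392-85310387), best known as a repressor of WNT target genes in embryonic stem cells, had 11.3, 14.7 and 10.8 TPM with the MI-503 label, against 0.110, 0.216 and 0.0400 TPM with the DMSO label. It made up 49.1% to 55.2% of the family sum with the MI-503 label and 0.836% to 4.07% with the DMSO label, and its log2 fold change of 6.62 (standard error 0.41, edgeR adjusted p = 4.13e-07) placed it second to FZD2 among the genes that were higher. It was 7.33 without DMSO replicate 2. LEF1, which more often activates, had 4.08, 6.23 and 3.67 TPM with the MI-503 label, against 0.649, 0.812 and 1.85 TPM with the DMSO label. LEF1 lay just short of the fold threshold at 1.97 (standard error 0.35, edgeR adjusted p = 0.000718). TCF7L2, the main intestinal member, took 19.8% to 32.7% of the family sum with the MI-503 label and was its largest part, 57.7% to 89.3%, with the DMSO label. Its own level overlapped between labels, with 7.49, 5.27 and 4.56 TPM with the MI-503 label against 8.45, 3.48 and 2.76 TPM with the DMSO label. Its call (log2 fold change 0.72, edgeR adjusted p = 0.029) was lost under several alternatives. TCF7, known from T cells, ranged from 0.113 to 1.32 TPM with the MI-503 label and from 0.127 to 0.792 TPM with the DMSO label. It shares 210 exonic bases with the far more abundant SKP1 on the opposite strand, and the part of that overlap was not tested.

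The intracellular antagonists NKD1 and NKD2 bind Dishevelled, the protein that relays the signal from Frizzled, and both were lower with the MI-503 label. NKD1 (chr16:50548396-50649249), itself a target of β-catenin, had 0.0171, 0.0076 and 0.0296 TPM with the MI-503 label, against 1.42, 0.981 and 0.932 TPM with the DMSO label. The 2 labels were far apart, with 14 reads in the MI-503 group and 929 in the DMSO group (log2 fold change −5.81, standard error 0.42, edgeR adjusted p = 1.35e-06). NKD2 had 2.02, 3.06 and 4.68 TPM with the MI-503 label, against 8.24, 8.14 and 9.80 TPM with the DMSO label (log2 fold change −1.64, standard error 0.28). Of the feedback inhibitors named in the background, AXIN2, NKD1 and ZNRF3 were lower and RNF43 did not pass. Among all tested genes 31.1% were lower, and this set is too short to be compared with that share. The secreted antagonist DKK1 had reads only with the MI-503 label and was not tested. Known β-catenin targets read from a further list, given below, did not share a direction.

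In order of mean TPM, 24 of the 50 genes reached 1 TPM with the MI-503 label and 28 with the DMSO label, with 20 genes in common, and 8 genes reached 10 TPM under each label. With the MI-503 label the order began CTNNB1, KREMEN2, LRP5, LGR4 and AXIN1.

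MLL1 contains a CXXC domain, a zinc finger that binds unmethylated CpG dinucleotides, which cluster at many promoters. Promoter windows of a ligand and a second gene from each direction are therefore printed, with each CpG in capitals. The windows are from RefSeq (GRCh38.p14) and run from 250 bases before to 50 bases after the start, 5′ to 3′ on the strand of the gene. WNT9A (chr1:227947883-227948182, minus strand) and TCF7L1 (chr2:85133142-85133441, plus strand) were higher with the MI-503 label, and WNT10A (chr2:218880602-218880901, plus strand) and FZD8 (chr10:35642247-35642546, minus strand) were lower.
WNT9A: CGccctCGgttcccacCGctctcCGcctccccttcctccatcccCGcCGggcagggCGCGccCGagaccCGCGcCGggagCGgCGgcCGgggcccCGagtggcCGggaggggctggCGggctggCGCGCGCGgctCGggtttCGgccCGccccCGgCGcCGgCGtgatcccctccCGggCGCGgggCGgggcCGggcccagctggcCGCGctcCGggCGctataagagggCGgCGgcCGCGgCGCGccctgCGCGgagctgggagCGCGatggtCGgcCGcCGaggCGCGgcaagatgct
TCF7L1: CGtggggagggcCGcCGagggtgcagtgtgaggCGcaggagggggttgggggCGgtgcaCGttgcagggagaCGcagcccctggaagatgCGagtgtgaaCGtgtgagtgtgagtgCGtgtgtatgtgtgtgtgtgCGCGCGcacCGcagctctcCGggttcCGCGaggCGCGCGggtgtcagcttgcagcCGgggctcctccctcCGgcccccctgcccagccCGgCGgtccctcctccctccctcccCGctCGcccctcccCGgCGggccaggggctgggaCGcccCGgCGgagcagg
WNT10A: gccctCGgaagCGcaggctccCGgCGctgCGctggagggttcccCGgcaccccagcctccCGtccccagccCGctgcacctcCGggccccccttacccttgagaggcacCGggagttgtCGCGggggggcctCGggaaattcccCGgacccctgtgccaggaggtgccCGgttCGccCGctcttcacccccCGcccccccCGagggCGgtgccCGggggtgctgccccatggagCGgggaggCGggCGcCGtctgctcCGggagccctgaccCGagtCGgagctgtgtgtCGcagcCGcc
FZD8: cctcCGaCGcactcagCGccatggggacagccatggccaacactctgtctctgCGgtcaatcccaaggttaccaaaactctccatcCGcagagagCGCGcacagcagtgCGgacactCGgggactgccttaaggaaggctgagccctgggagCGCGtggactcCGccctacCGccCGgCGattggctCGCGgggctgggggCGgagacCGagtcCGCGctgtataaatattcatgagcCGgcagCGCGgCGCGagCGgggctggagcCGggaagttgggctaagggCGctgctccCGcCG

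These windows held 53 CpGs (WNT9A), 31 (TCF7L1), 30 (WNT10A) and 31 (FZD8), against a median of 14 (interquartile range 4 to 28) in 35116 windows of the same length. Windows were found for 33 of the 50 genes, 43 windows in all. Those of 7 genes that were higher (9 windows) had a median of 25 CpGs, and those of 8 genes that were lower (10 windows) had 30.5, so CpG-rich windows occurred in both directions. The core TCF/LEF motif CTTTGAT, searched on both strands, was in 0 of the 43 windows and in 919 (2.62%) of all 35116. That says only that these letters are not in these windows.

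Other genes of the pathway were read from 6 lists in the same fit, in which 31.7% of all tested genes were higher and 31.1% lower. The lists are short, and their counts are to be read beside those shares. Of 13 genes for WNT secretion, extracellular agonists, WNT-inactivating enzymes and further ligands, 4 were tested, 1 higher and 1 lower (median log2 fold change −0.61). PORCN, the enzyme that attaches the lipid, was higher (log2 fold change 0.70) and TRABD2B, a protease that inactivates WNT, was lower (−2.29). TRABD2B had 5, 8 and 2 reads with the MI-503 label, against 49, 23 and 13 with the DMSO label. Its call was lost without DMSO replicate 1 and with a minimum of 1 CPM in 3 libraries. WLS, the carrier of WNT to the cell surface, averaged 2.885 ± 0.714 TPM with the MI-503 label and 4.22 ± 1.78 TPM with the DMSO label (SD, n = 3 each) and did not pass. Of 11 further antagonists, 4 were tested and all 4 passed, 2 higher and 2 lower. Their median log2 fold change of 0.71 lies between genes of opposite direction and stands for no gene of the list. TPBG, a membrane glycoprotein that dampens the β-catenin branch, had 31.7, 33.8 and 40.8 TPM with the MI-503 label, against 0, 0 and 0.0864 TPM with the DMSO label. DRAXIN, a secreted axon guidance protein, was also higher (log2 fold change 3.50), while DKKL1 was lower (−2.07). APCDD1, a membrane inhibitor of WNT signaling, was without reads with the MI-503 label, against 2.01, 1.74 and 1.26 TPM with the DMSO label, at least 80.4-fold lower.

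Among 14 tested genes of planar polarity and noncanonical receptors, 7 were higher and 2 lower (median log2 fold change 0.64). The pair of ROR tyrosine kinases, receptors for WNT5A, ran in opposite directions. ROR2 had 14.01, 14.8 and 13.3 TPM with the MI-503 label, against 0.0786, 0.122 and 0.0404 TPM with the DMSO label. ROR1 had no reads with the MI-503 label, against 3.13, 1.85 and 2.22 TPM with the DMSO label, at least 177.9-fold lower. PRICKLE2 and CELSR3, planar polarity genes, were higher (log2 fold changes 3.88 and 2.27). All 22 cytoplasmic relay genes were tested, 11 were higher and 4 lower (median log2 fold change 0.41). DVL3, a Dishevelled, had 178, 155 and 132 TPM with the MI-503 label, against 43.5, 33.8 and 43.8 TPM with the DMSO label. FRAT1, an inhibitor of GSK3, and PPP2R5A, a phosphatase subunit, were higher (2.08 and 1.57), and AMER1, a partner of APC, was lower (−2.65). Of 18 tested nuclear cofactors, 5 were higher (27.8%), among them BCL9L (1.52) and the corepressor TLE1 (1.40). Another 6 were lower (33.3%), among them PYGO1 (−2.85) and TBL1X (−1.06), with a median of −0.11 over the list. Both shares were near those over all tested genes.

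Genes that are known β-catenin targets in other settings did not share a direction. Of 20 such genes outside the 50, 14 were tested, 6 were higher and 7 lower, all past the fold threshold. Past that threshold, 12.6% of all tested genes were higher and 11.7% lower. The median log2 fold change of −2.09 lies in the gap between MYC (−3.71, lower) and CCND1 (−0.47, not passed). It stands for no gene of the list. MSX2, a homeobox gene, had 76.8, 87.5 and 77.5 TPM with the MI-503 label, against 1.93, 2.35 and 2.61 TPM with the DMSO label. BMP4, a growth factor, had 29.96, 34.5 and 34.1 TPM with the MI-503 label, against 0.0437, 0.170 and 0.276 TPM with the DMSO label. Both were thus far higher with the MI-503 label, and the next 2 genes ran the other way. TNFRSF19, a receptor of the TNF receptor family, had 0.0155, 0 and 0.0390 TPM with the MI-503 label, against 72.1, 68.2 and 30.6 TPM with the DMSO label. TBX3, a T-box factor of mammary development, had 11.1, 7.13 and 6.67 TPM with the MI-503 label, against 156, 124 and 141 TPM with the DMSO label. For each of these 4 genes the labels lay far apart.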

How the data were processed

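RNA from 6 cultures labelled T47D was isolated with the RNeasy kit and sequenced by Novogene. The authors quantified transcripts with salmon (Illumina DRAGEN) and deposited, for each library, estimated counts of reads without normalization and TPM, which salmon scales by effective transcript length and library. The submitters' processing notes name hg38 and GRCh38.p13. The version of salmon, its bias settings, the annotation and the library strandedness were not given in the sources used here.

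Here GENCODE 44 linked 229321 of 232117 transcript identifiers (98.8%) to genes, covering 99.16% to 99.27% of reads in each library, and estimated counts were summed to 61279 genes and rounded. Mitochondrial genes took 1.37% to 7.12% of reads. Libraries were grouped by label. The test was edgeR 4.0.16 (R 4.3.3, limma 3.58.1): TMM scaling (factors 0.934 to 1.053), filterByExpr, glmQLFit with robust estimation and glmQLFTest, with no block, and Benjamini-Hochberg adjustment over 16442 genes. Standard errors are the size of the log2 fold change divided by the square root of F. Levels of different genes are set side by side only in TPM. TPM means are given with the SD of 3 libraries. Floors use 3 reads over a group and cover counting error only, because the libraries carried no stated molecular identifiers and reads are not independent molecules. Figures were drawn with matplotlib 3.10.9.

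All 50 genes were given by name and are accounted for. Values by library are given for genes past the fold threshold, for CTNNB1, APC, AXIN1, LRP5 and LRP6, and for others where a comparison needed them; from each of 6 further lists up to 4 genes with the smallest adjusted p are named. The genes and the lists were chosen with earlier results of these data known. Tried in turn were scaling by RLE and by upper quartile, omission of the low-count filter, a minimum of 1 CPM in 3 libraries, DESeq2 1.42.0, replicate number as a block, length-scaled counts, leaving out each of the 6 libraries in turn, and CPM in place of TPM for levels.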

Additional observations from a re-analysis of the deposited data

How the results depend on the processing

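The count of genes past the fold threshold that were higher with the MI-503 label was 9 without a filter on low counts, against 5 in the main analysis, since WNT1, WNT11 and DKK1 then entered the test and LEF1 reached 2.01. The other 12 alternatives kept each of the counts of higher and lower genes within 1.5 times its main value. Several genes whose labels did not differ beyond their error changed sign. LRP5 ranged from −0.17 to 0.02 (0.0159), CTNNB1 from −0.14 to 0.04 (0.0354 and 0.0163 without replicate 1 of either label) and APC from −0.15 to 0.13 on the log2 scale when 1 library was left out. APC was 0.0056 with no filter and 0.0411 with length-scaled counts, and KREMEN1 was 0.0672 with length-scaled counts.

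WNT2B was 0.65 with length-scaled counts, and lost its call there (adjusted p = 0.439), without a filter (0.0504), in DESeq2 (0.0609) and without MI-503 replicate 2 or 3 or DMSO replicate 1 (0.0744 to 0.0842). TCF7L2 lost its call with length-scaled counts (0.439) and without MI-503 replicate 1 or 2 or DMSO replicate 2 or 3 (0.0578 to 0.104). FZD3 passed with length-scaled counts (0.0427) and without DMSO replicate 3 (0.0371). The tested genes not named so far stayed on their side of the threshold with their direction in each of the 13 alternatives. Among them, leaving out 1 library moved the fold by over 1.5 times for FZD2 (11.68 without DMSO replicate 2), TCF7L1, AXIN2, WNT5A and WNT10A, whose values stand beside their results. In the further lists, secretion genes that were lower numbered 0 with the 1 CPM minimum and without DMSO replicate 1 and 2 without DMSO replicate 3, against 1, antagonists numbered 4 higher without a filter, against 2, and 1 lower with the 1 CPM minimum, against 2, and nuclear cofactors that were lower numbered 3 without MI-503 replicate 2, against 6.

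Libraries with the same replicate number did not deviate together (correlations −0.0981, 0.0706 and −0.089 over all tested genes), so no pairing by number was seen. With 3 libraries per label this cannot show that libraries of the same number were handled apart. With the replicate block, 10 genes were higher and 15 lower, 6 and 8 of them past the fold threshold, and no gene of the 50 changed its side of the adjusted p. The median of all genes was −0.10 under upper-quartile scaling and −0.12 in DESeq2, on the log2 scale. Genes with under 5 reads in a group are limited by depth. The strand setting was not given, which bears on KREMEN2, FZD4, WNT2B, TCF7 and DKK3, and the marker levels of the libraries labelled DMSO bear on each comparison.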

Other observations

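ZNRF3 reads were divided differently among its annotated transcripts. ZNRF3-203 (6872 bases) had 1.56, 1.60 and 1.53 TPM with the MI-503 label, against 7.48, 5.07 and 6.15 TPM with the DMSO label. The shorter ZNRF3-202 (2878 bases) had 1.09, 1.57 and 2.09 TPM with the MI-503 label, against 0.558, 0.844 and 0.754 TPM with the DMSO label. ZNRF3-203 thus held 42.3% to 58.9% of the gene's TPM with the MI-503 label and 85.7% to 93.1% with the DMSO label, while the gene as a whole was lower with the MI-503 label. KREMEN2-201 had 36.8, 29.8 and 35.2 TPM with the MI-503 label, against 3.96, 5.15 and 2.31 TPM with the DMSO label, and KREMEN2-204 had 14.2, 6.30 and 11.2 TPM with the MI-503 label, against 2.42, 4.44 and 5.97 TPM with the DMSO label. Both KREMEN2 transcripts separated the labels, but KREMEN2-204 only narrowly (6.30 against 5.97 TPM). The share of KREMEN2-201 ran from 25.7% to 56.4% between libraries labelled DMSO. LEF1-211, a transcript with no defined coding sequence, had 0.832, 2.69 and 1.50 TPM with the MI-503 label and 0 TPM in each library labelled DMSO. These values are salmon's assignments, given as descriptions without a test.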
